A study of Mus musculus with 6 samples.

Results

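The 9 genes described here make or inactivate prostaglandins: the cyclooxygenases Ptgs1 and Ptgs2, the prostaglandin E synthases Ptges, Ptges2 and Ptges3, the prostaglandin D synthase Ptgds, the prostacyclin synthase Ptgis, and the breakdown enzymes Hpgd and Ptgr1. They were picked by gene name from a table of 28262 genes, and all 9 were among the 14919 genes with enough reads to be tested. Their reads were counted in RNA-seq libraries of cultured Sertoli cells, the somatic cells that nurse the germ cells in the seminiferous tubule, from the testes of 20-day-old C57BL/6 mice. The comparison asks what the loss of Pa1, a protein of histone methyltransferase complexes, changes in the RNA of these cells.

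The control group was 3 libraries of untreated Pa1F/F cells, whose Pa1 alleles are floxed and intact. The knockout group was 3 libraries of untreated Amh-pa1-/- cells, in which Amh-cre, a recombinase gene under the Sertoli cell promoter of Amh, removes the floxed alleles. Cells of both genotypes were released from the tubules by enzymes and kept in culture at 34 °C and 5% CO2. Germ cells that did not attach were washed away. Pa1 itself was not analysed here, so the genotype rests on the labels. The study's methods call the samples biological replicates but do not say whether those of a genotype came from separate animals, so p-values measure only the spread between these libraries.

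Prostaglandins are made from arachidonic acid, which phospholipases cut from membrane lipids. A cyclooxygenase turns it into prostaglandin H, and a terminal synthase turns that into prostaglandin E, D, F, prostacyclin or thromboxane. The products leave the cell, act on receptors of the same or neighbouring cells, and are taken up and inactivated by oxidation and then reduction. In the testis, prostaglandins are known as local signals of Sertoli, Leydig and peritubular cells.

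The starts of the genes that carry the results are shown first, namely the 2 members that fell in the knockout and Ptgs2, the member with the widest spread between libraries. Each line gives 180 bases of the RefSeq promoter in build GRCm38.p6, 150 before the RefSeq start and 30 from the start on, 5′ to 3′ along the gene. Capitals mark the half-site of the cyclic AMP response element, searched as TGACG or its reverse complement CGTCA. Ptgs2 is shown at chr1:150099881-150100060 on the plus strand, Ptges at chr2:30903268-30903447 on the minus strand and Ptgr1 at chr4:58987049-58987228 on the minus strand.

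Ptgs2: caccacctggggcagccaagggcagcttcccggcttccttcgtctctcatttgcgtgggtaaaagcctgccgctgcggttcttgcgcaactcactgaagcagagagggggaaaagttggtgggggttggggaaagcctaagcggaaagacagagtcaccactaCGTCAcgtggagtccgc
Ptges: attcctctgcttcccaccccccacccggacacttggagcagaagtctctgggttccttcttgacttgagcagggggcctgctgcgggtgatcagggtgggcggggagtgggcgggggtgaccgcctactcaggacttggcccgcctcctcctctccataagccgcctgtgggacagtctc
Ptgr1: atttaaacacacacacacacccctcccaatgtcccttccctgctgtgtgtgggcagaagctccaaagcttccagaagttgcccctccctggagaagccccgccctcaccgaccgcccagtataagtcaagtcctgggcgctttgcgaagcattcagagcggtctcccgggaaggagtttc

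RefSeq promoters of 300 bases, 250 before the start and 50 after it, were at hand for 8 of the 9 members, with no entry for Ptgis. The half-site was in the promoters of Ptgs2, with its first base at position 14 from the start, and Ptges3, at position 12. Of all 32851 promoters of this length, 20.8% held it. The AP-1 motif, TGACTCA or TGAGTCA, which is bound by Fos and Jun proteins, was found in the window of 1 member, Ptgds, beginning 35 bases before the start, and in 5.20% of all promoters. The TATA motif, TATAAA or TTTATA, was found in the window of Hpgd alone among the members and in 13.6% of all promoters. None of the 3 motifs contains another, and a match is a description of the letters and not of a bound site. The Ptges window lies inside the gene span of the counted annotation, which reaches further upstream, from 30889471 to 30929863 on chromosome 2. The number of CpG dinucleotides in the 300 bases was 16 for Ptgs2, 10 for Ptges and 7 for Ptgr1, and the median of all promoters was 7.

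Values below are normalized counts, that is reads per gene scaled by library size and TMM factor to the mean library. A gene was called at an adjusted p under 0.05 in the quasi-likelihood test of edgeR, adjusted by Benjamini-Hochberg over all genes tested, together with a log2 fold change of at least 1 in either direction. By this rule 2 of the 9 members, Ptges and Ptgr1, fell in the knockout and none rose, where 12.0% of all tested genes were called, 6.56% lower and 5.44% higher. By the adjusted p alone 2 members were lower and 1, Ptgs1, was higher, beside 35.3% of all tested genes in either direction. The libraries of the genotypes did not overlap for 4 members, beside 52.4% of all tested genes. The median log2 fold change, knockout over control, was -0.09 over the members and 0.00 over all tested genes.

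Total counts per library lay between 13203757 and 16231443. Spacing between replicates was uneven, as a median-based coefficient of variation beyond counting noise showed over well-covered genes. It was 3.21% between Pa1F/F replicates 1 and 3 and 7.15% to 7.61% between either of them and replicate 2. Between Amh-pa1-/- replicates 1 and 2 it was 2.45%, and replicate 3 stood 12.1% to 12.4% from both. Of 18 Sertoli cell markers 15 were tested and 2 of them fell (Sox8 and Inhbb). Without Amh-pa1-/- replicate 3, Amh was also called lower (log2 fold change -2.16) and Gata1 higher (1.18), and without replicate 1 or 2 Inhbb lay under the fold threshold. The defining markers Sox9 and Wt1 were high in all 6 libraries, at 3172 to 4983 and 4493 to 6084 normalized counts. By the adjusted p alone 5 Sertoli cell markers were lower and 1 was higher, beside 17.1% and 18.2% of all tested genes. Gata4 was among the lower ones, with a log2 fold change of -0.88, under the fold threshold. The list summed to 304555 to 319370 in the control and 196912 to 257085 in the knockout libraries, and Clu made up most of it. The markers Rhox5, Trf and Tsx did not exceed 15.5 normalized counts in any library. Among other cell types, 8 of 10 tested macrophage and 4 of 6 tested Leydig cell markers fell, with median log2 fold changes of -2.58 and -1.32. The defining Leydig cell markers Cyp17a1 and Insl3 did not exceed 3 counts in any library, control libraries included. Further, 4 of 6 tested mesothelial markers rose, 1 of 7 fibroblast and 2 of 4 germ cell markers fell, and 1 of 4 endothelial markers fell and 1 rose. Some of these last calls depended on single libraries. The endothelial marker that fell, Pecam1, kept its call without any single Amh-pa1-/- replicate and without Pa1F/F replicate 2. The fibroblast marker Col3a1 was also called lower without Amh-pa1-/- replicate 3 (log2 fold change -1.30). Without replicate 1 or 2 the fibroblast marker Pdgfra lay under the fold threshold and the endothelial marker Vwf lost its call, as did the germ cell marker Ddx4 without replicate 1. In bulk RNA, fewer cells of a type and less RNA per cell cannot be told apart. The part of these cell types in the falls of Ptges and Ptgr1 below was not tested.

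Ptges encodes the microsomal, inducible prostaglandin E synthase, which acts beside the cyclooxygenases in the membrane. Its gene (ENSMUSG00000050737) spans 30889471 to 30929863 on chromosome 2, minus strand. Ptges stood at 805, 1319 and 705 normalized counts in Pa1F/F replicates 1, 2 and 3, and at 329, 369.5 and 259.5 in Amh-pa1-/- replicates 1, 2 and 3. Pa1F/F replicate 2 was the highest by a wide margin, and even the lowest control library was above every knockout library. The mean fell from 943 ± 329 to 319 ± 55.6 (SD, n = 3 each), a 2.95-fold lower level. The log2 fold change of Ptges was -1.56 (SE 0.26), with an adjusted p of 0.00452 in edgeR's quasi-likelihood test. Without Pa1F/F replicate 2 the log2 fold change was -1.24 (adjusted p = 0.00408 in the same edgeR test), and without Amh-pa1-/- replicate 3 it was -1.43.

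Ptgr1 encodes prostaglandin reductase, which reduces the keto prostaglandins left by Hpgd and also oxidises leukotriene B. Its gene (ENSMUSG00000028378) spans 58965439 to 58987119 on chromosome 4, minus strand. Ptgr1 stood at 2506, 2556 and 2702 normalized counts in the Pa1F/F replicates and at 1107, 1067 and 907 in the Amh-pa1-/- replicates. Both genotypes were tight, and the highest knockout library was far below the lowest control library. The mean fell from 2588 ± 102 to 1027 ± 106 (SD, n = 3 each), which is 2.52-fold lower. The log2 fold change of Ptgr1 was -1.33 (SE 0.08), with an adjusted p of 0.000158 in edgeR's quasi-likelihood test. Ptgr1 was the member with the smallest adjusted p, and it stayed called under each of 16 alternative settings.

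**Figure D1:**
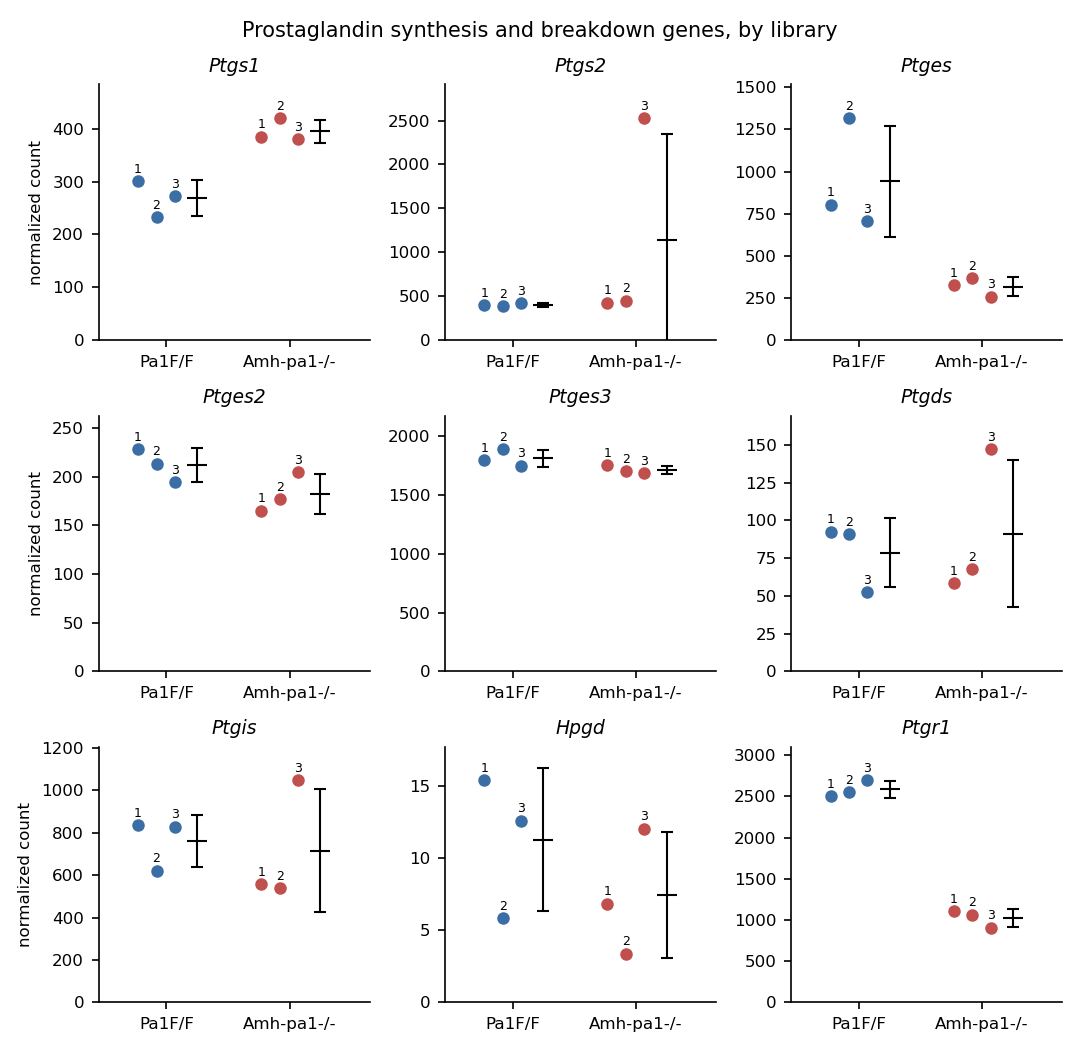
Normalized counts (vertical axis, linear, from 0) of the 9 genes in each library, with Pa1F/F in blue and Amh-pa1-/- in red; numerals are the replicate numbers and the bars are mean ± SD (n = 3). Ptges and Ptgr1 lie lower in all 3 knockout libraries, Ptgs1 lies higher, and Ptgs2 is high in Amh-pa1-/- replicate 3 alone, so that the lower end of its SD bar falls below 0 and is not drawn.

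Ptgs1 encodes the constitutive cyclooxygenase, the enzyme that low-dose aspirin blocks in platelets. Its gene (ENSMUSG00000047250) spans 36230426 to 36252272 on chromosome 2, plus strand. Ptgs1 stood at 301, 232 and 273 normalized counts in the Pa1F/F replicates and at 385, 420.2 and 379.7 in the Amh-pa1-/- replicates. All 3 knockout libraries were above all 3 control libraries. The log2 fold change of Ptgs1 was 0.55 (SE 0.12), with an adjusted p of 0.0111 in edgeR's quasi-likelihood test. The level was 1.47-fold higher, under the fold threshold, so the gene was not called.

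Ptgs2 encodes the inducible cyclooxygenase, which many cells switch on within hours of a stimulus. Its gene (ENSMUSG00000032487) spans 150100031 to 150108227 on chromosome 1, plus strand. Ptgs2 stood at 403, 386 and 427 normalized counts in the Pa1F/F replicates, and at 429, 452 and 2529.99 in the Amh-pa1-/- replicates. Amh-pa1-/- replicate 3 lay at 5.60 times the level of the highest of the other 5 libraries, which formed a narrow band. The genotypes did not overlap, but only by the narrow step between Pa1F/F replicate 3 and Amh-pa1-/- replicate 1. The log2 fold change of Ptgs2 was 1.49 (SE 0.69), and its adjusted p in edgeR's quasi-likelihood test was 0.138. Without Amh-pa1-/- replicate 3 the log2 fold change was 0.12 (adjusted p = 0.280 in the same edgeR test), so the size of the estimate rests on that library. The antisense gene Ptgs2os, which starts just upstream of Ptgs2 on the opposite strand, had at most 8 counts in a library.

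Among 11718 genes whose mean reached 50 normalized counts, Ptgs2 ranked 4 by the ratio of Amh-pa1-/- replicate 3 to the highest other library. In all, 71 of these genes stood at least 2 times above the highest other library there, and 5 at least 5 times. Genes of the immediate-early response, a list chosen after values were seen, were also high in that library, where 12 of 14 had their highest value, as had 24.2% of all tested genes. Fos, a subunit of AP-1, stood at 673, 700.03 and 646 normalized counts in the Pa1F/F replicates and at 932, 978 and 4099 in the Amh-pa1-/- replicates. The summed level of the list lay between 12273 and 12876 in the control libraries, at 15035 and 15030.4 in Amh-pa1-/- replicates 1 and 2, and at 34538 in replicate 3. Smooth muscle genes of peritubular myoid cells were high there too, with 7 of 8 markers highest in Amh-pa1-/- replicate 3. Of the 7 tested, 2 rose in the knockout, and the list summed to 3362 to 4350 in the control, 12978 and 12520.5 in Amh-pa1-/- replicates 1 and 2 and 19463 in replicate 3. Acta2, a smooth muscle actin, made up 12312 and 11886 of the sums in replicates 1 and 2. Without replicate 3 Myh11, Des and Actg2 were lower in the knockout, with log2 fold changes of -1.58, -1.35 and -1.40 (adjusted p = 0.000484, 0.00275 and 0.00234 in the same edgeR test). Cnn1, a smooth muscle calponin, stood at 53.5, 27.1 and 65.0 normalized counts in the control replicates and at 34.2, 24.8 and 421 in the knockout replicates. The part of either list in the Ptgs2 value was not tested.

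**Figure D2:**
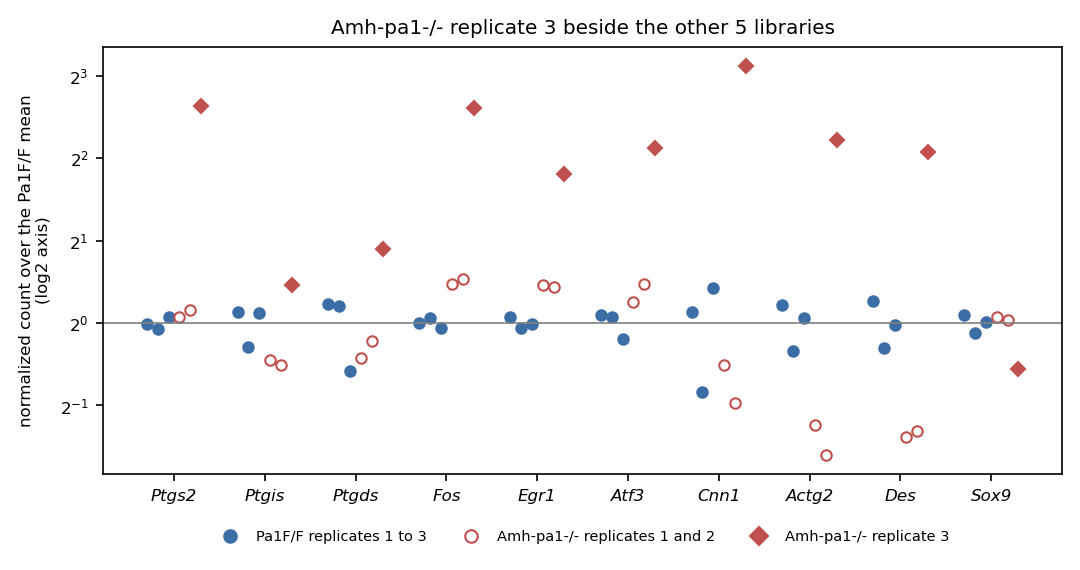
Normalized counts divided by the Pa1F/F mean (vertical axis, log2 scale) for 3 members, 3 immediate-early genes, 3 smooth muscle genes and Sox9, with 1 point per library; genes other than the members were chosen after their values were seen. Amh-pa1-/- replicate 3 (diamonds) is the highest library for all genes plotted but Sox9, for which it is the lowest, while Amh-pa1-/- replicates 1 and 2 (open circles) lie together.

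The other prostaglandin E synthases differed less between genotypes than Ptges. Ptges2, a membrane-bound synthase (ENSMUSG00000026820, chromosome 2, 32395896 to 32405772, plus strand), stood at 228, 213 and 194 normalized counts in the control replicates and at 165, 177 and 204 in the knockout replicates. The ranges overlapped, and the log2 fold change of Ptges2 was -0.22 (SE 0.12, adjusted p = 0.212 in edgeR's quasi-likelihood test). Ptges3, the cytosolic synthase better known as a co-chaperone of heat shock protein, is at ENSMUSG00000071072 on chromosome 10, 128058954 to 128077272, plus strand. Ptges3 stood at 1794, 1889.99 and 1748 normalized counts in the control replicates and at 1751, 1701 and 1686 in the knockout replicates. Its 6 libraries lay close together, with a log2 fold change of -0.08 (SE 0.05, adjusted p = 0.265 in edgeR's quasi-likelihood test). Reads of Ptges3 may be shared with its pseudogene Ptges3-ps on chromosome 6, so its level is uncertain to that extent. Ptges3-ps held 343 to 383 normalized counts in the control and 422 to 444 in the knockout libraries.

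Ptgds encodes the lipocalin-type prostaglandin D synthase, known in the testis from Sertoli and Leydig cells (ENSMUSG00000015090, chromosome 2, 25466709 to 25470046, minus strand). Ptgds stood at 92.4, 91.0 and 52.4 normalized counts in the control replicates and at 58.6, 67.6 and 147 in the knockout replicates. Amh-pa1-/- replicate 3 was again the highest of the 6, and the ranges overlapped. For Ptgds the log2 fold change was 0.21 (SE 0.40, adjusted p = 0.715 in edgeR's quasi-likelihood test). It turned to -0.32 without Amh-pa1-/- replicate 3 and to -0.01 without Pa1F/F replicate 3, so no direction can be read.

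Ptgis encodes prostacyclin synthase, best known from the vessel wall (ENSMUSG00000017969, chromosome 2, 167191805 to 167240604, minus strand). Ptgis stood at 835, 621 and 829 normalized counts in the control replicates and at 556, 537 and 1049 in the knockout replicates. Amh-pa1-/- replicates 1 and 2 were below all controls, and replicate 3 was above them. For Ptgis the log2 fold change was -0.09 (SE 0.27, adjusted p = 0.819 in edgeR's quasi-likelihood test). Without Amh-pa1-/- replicate 3 it was -0.48, with an adjusted p of 0.0286 in the same edgeR test and still under the fold threshold. It was 0.06 without Amh-pa1-/- replicate 1 and 0.092 without replicate 2, so its direction rests on single libraries. The endothelial list summed to 1731 to 1814 normalized counts in the control libraries, 952 and 959.8 in Amh-pa1-/- replicates 1 and 2 and 1518 in replicate 3. Cdh5 made up most of these sums, at 1565 to 1599 in the control and 811, 829 and 967 in the knockout replicates. Of the 9 endothelial markers found, 5 had too few reads to be tested. Kdr carried most of the step to replicate 3, at 80.0, 74.4 and 485 in the knockout replicates, while Pecam1 was lowest there, at 13.03. The part of endothelial cells in the Ptgis values was not tested.

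Hpgd encodes the dehydrogenase that begins the breakdown of prostaglandins, the step before Ptgr1 (ENSMUSG00000031613, chromosome 8, 56294585 to 56321043, plus strand). Hpgd had few reads, with 17, 6 and 12 counts in the control replicates and 7, 3 and 12 in the knockout replicates. The ranges overlapped, and the log2 fold change was -0.58 (SE 0.54, adjusted p = 0.442 in edgeR's quasi-likelihood test). Hpgd had a log2 fold change of -1.10 without Amh-pa1-/- replicate 3 and of -0.24 without replicate 2. The adjusted p does not show that the genotypes were alike.

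**Figure D3:**
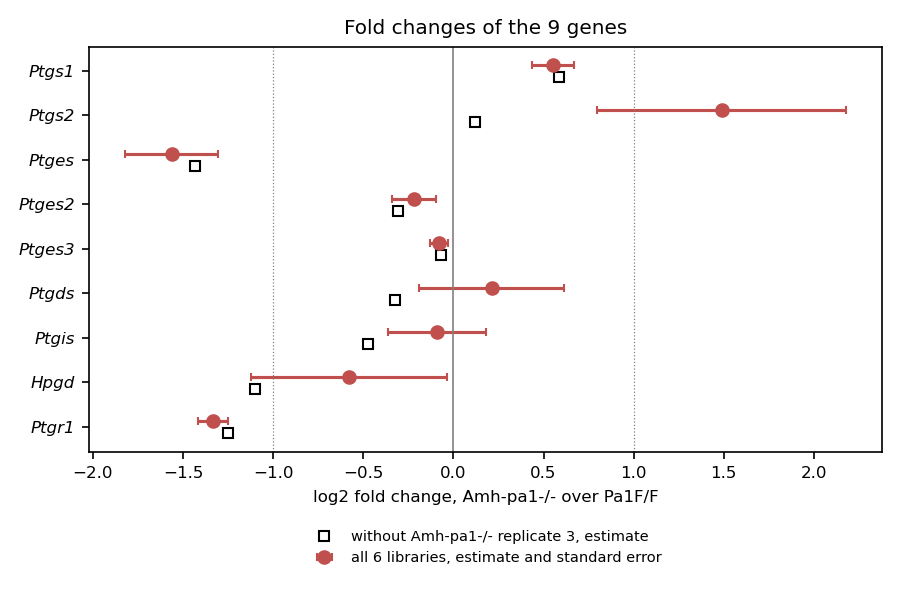
Log2 fold changes, knockout over control (horizontal axis), of the 9 genes from all 6 libraries (circles, bar: standard error) and without Amh-pa1-/- replicate 3 (squares, estimate only); dotted lines mark log2 fold changes of -1 and 1. Ptges and Ptgr1 stay below -1 either way, whereas Ptgs2 drops from 1.49 to 0.12 and Ptgds changes sign.

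Levels of different genes were compared as normalized counts per kilobase of exon. In Pa1F/F cells Ptgr1 was the most abundant member, at 909 ± 35.8, followed by Ptges3 at 813 ± 32.4 (SD, n = 3), and their libraries did not overlap. Ptges at 214 ± 74.8 and Ptgis at 213 ± 34.1 came next on this scale, and the pair did not differ beyond its spread. Ptgs2 at 79.1 ± 3.97 and Ptgs1 at 69.1 ± 8.85 per kilobase overlapped likewise, and Ptges2 followed at 31.0 ± 2.52. Ptgds at 10.5 ± 3.04 and Hpgd at 3.65 ± 1.60 per kilobase were the lowest by this length. In Amh-pa1-/- cells Ptges3 was the highest on the same scale, at 769 ± 15.3, and Ptgr1 stood at 361 ± 37.2. Ptges, at 72.5 ± 12.6 per kilobase in the knockout, lay below Ptgs1 at 102 ± 5.68, whereas it lay above Ptgs1 in the control. The order depends in part on the transcript length used. With the canonical transcript Ptgs1 stood at 93.7 and Ptgs2 at 85.4 per kilobase in control cells, Ptgis at 346 and Ptges at 255, and Ptgds at 42.2 and Ptges2 at 40.6.

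The ratio of Ptges to Ptges3 per kilobase was 0.261 ± 0.0802 in the control and 0.0942 ± 0.0160 in the knockout (SD, n = 3 each). The ratio of Ptges to Ptges2 was 6.90 ± 2.34 and 2.77 ± 0.696. Both ratios were lower in every knockout library than in any control library, with an exact two-sided permutation p of 0.1 each, the smallest that 3 against 3 libraries allow. The ratio of Ptgs2 to Ptgs1 per kilobase was 1.02, 1.26 and 1.19 in the control replicates and 0.845, 0.816 and 5.05 in the knockout replicates. Amh-pa1-/- replicates 1 and 2 were thus below the controls in this ratio and replicate 3 far above them.

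The genes whose log2 CPM followed Ptges most closely over the 6 libraries were Saysd1 (Pearson r = 0.998) and Pnpla6 (r = 0.997), out of 11717 genes whose mean reached 50 normalized counts. For Ptgr1 they were Rnf149 and Mpzl1, at r = 0.9997 and 0.9995. The log2 fold changes of these genes were -0.46, -0.35, -0.55 and -1.04 in that order. The r values are taken over 6 libraries of 2 genotypes and are a description of likeness only. By position, 5 of the 9 members lie on chromosome 2, which holds 7.78% of the tested genes, and of these 5 only Ptges was called.

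The rest of the pathway was read from 5 lists, and 57 genes beside the members were in the table, of which 35 were tested. Of these 35, 4 fell and 3 rose, together 20.0%, beside 12.0% of all tested genes. The count was 4 of 35 without Pa1F/F replicate 1 (beside 9.65% of all genes) and 4 of 35 without Pa1F/F replicate 3 (beside 9.78%). With the closest pairs of replicates summed, 38 pathway genes were tested and 3 were called (beside 5.53%). By the adjusted p alone, in the fit of all 6 libraries, the count was 13 of 35, beside 35.3% of all tested genes. Over the 35 genes the log2 fold change had a median of -0.02.

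**Figure D4:**
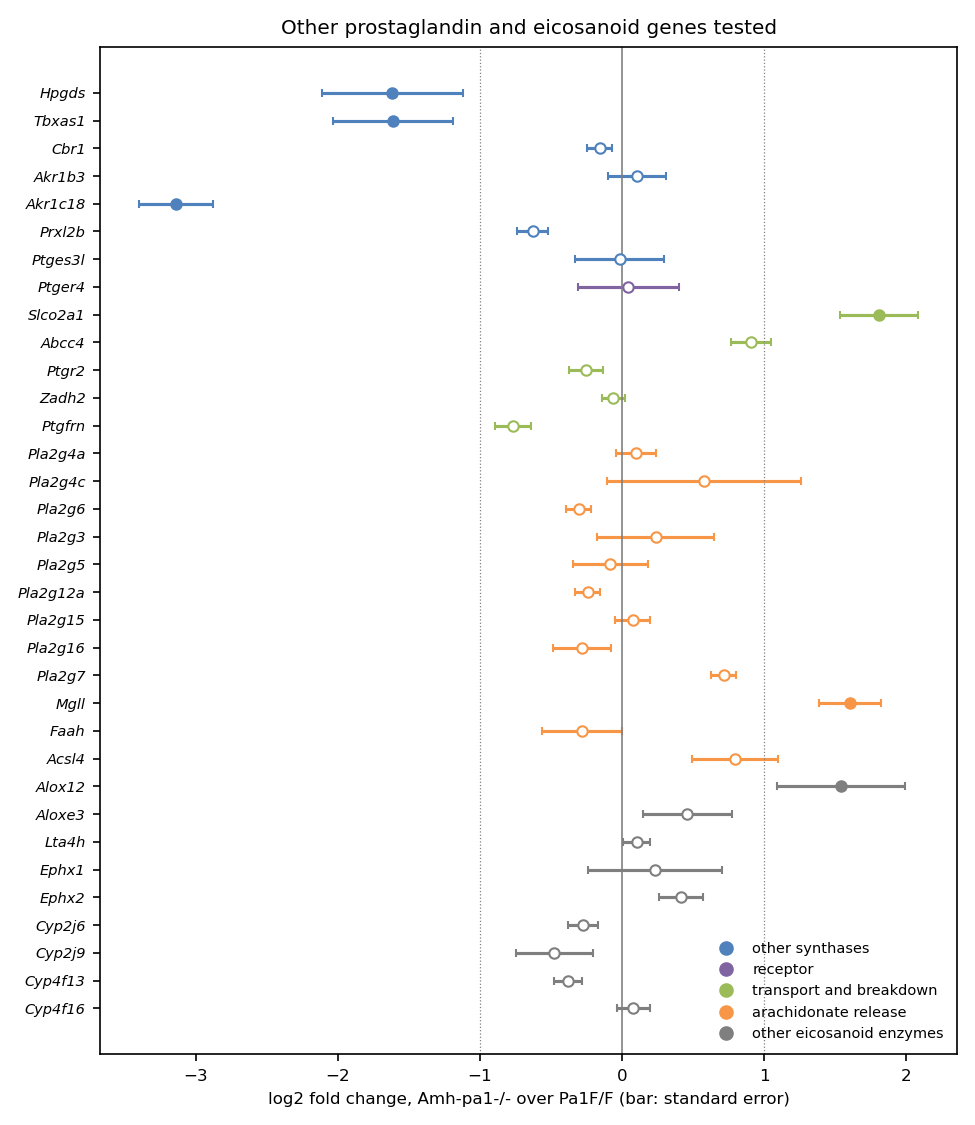
Log2 fold changes, knockout over control (horizontal axis, bar: standard error), of 34 of the 35 tested pathway genes outside the 9, coloured by list; filled points passed both thresholds and dotted lines mark -1 and 1. Akr1c18, Hpgds and Tbxas1 lie on the lower side and Slco2a1, Mgll and Alox12 on the higher side, and Pla2g2d is left out since its knockout counts were all 0.

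Of 7 further synthases, 3 fell and none rose. Akr1c18, best known as the hydroxysteroid dehydrogenase that inactivates progesterone and also a prostaglandin F synthase, stood at 211, 234 and 155 normalized counts in the control replicates and at 28.3, 23.7 and 16.0 in the knockout replicates. No knockout library came near a control library, and the log2 fold change of Akr1c18 was -3.14 (SE 0.26, adjusted p = 0.000389 in edgeR's quasi-likelihood test). Leydig cell markers, another source of steroid enzymes, fell as well, with 4 of 6 tested markers lower and a summed level of 15686 to 16815 in the control and 4912 to 7180 in the knockout libraries. The defining Leydig markers Cyp17a1 and Insl3 had at most 3 counts in every library. The part of Leydig cells in the fall of Akr1c18 was not tested.

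Hpgds, the prostaglandin D synthase of blood-derived cells, stood at 16.3, 11.6 and 16.8 normalized counts in the control replicates and at 8.79, 2.25 and 3.01 in the knockout replicates. Tbxas1, the thromboxane synthase of platelets and macrophages, stood at 30.8, 23.2 and 26.2 in the control replicates and at 7.81, 14.6 and 4.01 in the knockout replicates. Both genes were low and did not overlap between genotypes. The log2 fold changes were -1.62 (SE 0.50, adjusted p = 0.0437) for Hpgds and -1.61 (SE 0.42, adjusted p = 0.0248) for Tbxas1 in edgeR's quasi-likelihood test. Without Amh-pa1-/- replicate 3 they were -1.36 (adjusted p = 0.0814) and -1.26 (adjusted p = 0.0274) in the same edgeR test. Hpgds had a log2 fold change of -2.43 without Amh-pa1-/- replicate 1. Hpgds lost its call under 10 alternatives and Tbxas1 under 6 and Tbxas1 overlaps the more abundant Hipk2. Macrophage markers fell alongside, with 8 of 10 tested markers lower. Their summed level was 1930 to 2103 in the control and 1135 to 1398 in the knockout libraries. Mrc1, which was not called, held 945 to 1022 and 932 to 1216 of it. The defining marker Tyrobp stood at 19.9 to 31.5 normalized counts in the control and 0 to 2.25 in the knockout libraries. The part of macrophages in these calls was not tested.

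The other synthases were not called. Akr1b3, an aldose reductase with prostaglandin F synthase activity, was the most abundant at 5491 to 7472 normalized counts in the control and 5620 to 8640 in the knockout libraries. Its log2 fold change was 0.11, and that of Cbr1, a carbonyl reductase acting on prostaglandin E, was -0.16. Prxl2b, listed as Fam213b and known as prostamide synthase, stood at 227, 218 and 218 normalized counts in the control and at 140, 132 and 157 in the knockout replicates. Its log2 fold change was -0.63 (adjusted p = 0.00540 in edgeR's quasi-likelihood test), under the fold threshold.

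Of 5 genes of transport and breakdown, 1 rose. Slco2a1, the transporter that takes prostaglandins up into cells, stood at 1034, 861 and 1170.5 normalized counts in the control replicates and at 4307, 4271 and 2146 in the knockout replicates. All knockout libraries were above all controls, and Amh-pa1-/- replicate 3 was the lowest of them. For Slco2a1 the log2 fold change was 1.81 (SE 0.27, adjusted p = 0.00338 in edgeR's quasi-likelihood test) and 2.07 without that library. Abcc4, an exporter of prostaglandins named here after its values were seen, stood at 139.5, 166 and 169.9 normalized counts in the control and at 293, 339 and 258 in the knockout replicates. Its log2 fold change was 0.90 (adjusted p = 0.00359 in the same edgeR test), just under the fold threshold. Ptgfrn, a membrane protein that restrains the prostaglandin F receptor, had a log2 fold change of -0.77 (adjusted p = 0.00460 in the same edgeR test). The reductases Ptgr2 and Zadh2, which share the step of Ptgr1, had log2 fold changes of -0.25 and -0.06 and were not called.

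**Figure D5:**
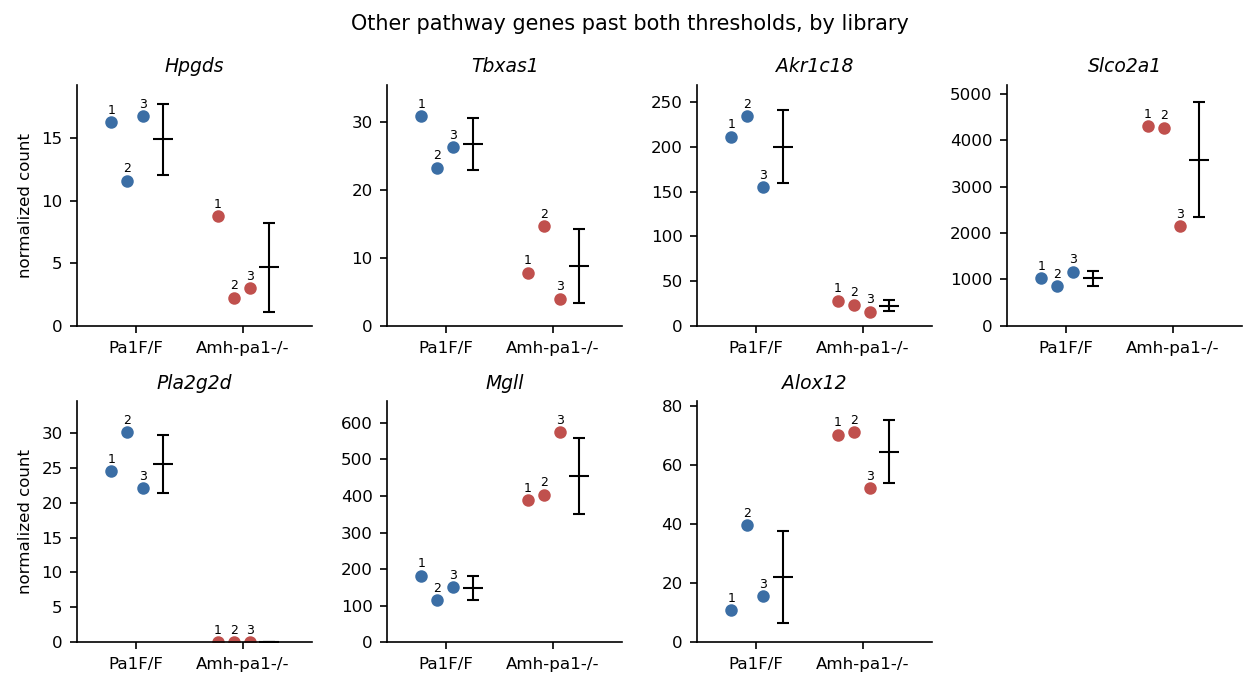
Normalized counts (vertical axis, linear, from 0) of the 7 called pathway genes outside the 9 in each library, with Pa1F/F in blue and Amh-pa1-/- in red; numerals are the replicate numbers and the bars are mean ± SD (n = 3). Slco2a1 and Mgll are higher in all 3 knockout libraries, Akr1c18 is lower, and Hpgds, Tbxas1 and Pla2g2d fall from levels of at most 30.8 normalized counts.

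Receptors were scarce. Of 8 prostanoid receptor genes in the table only Ptger4 was tested, at 36.2, 37.8 and 47.2 normalized counts in the control replicates and 32.2, 27.0 and 65.1 in the knockout replicates. The ranges overlapped, and its log2 fold change was 0.04 (adjusted p = 0.935 in edgeR's quasi-likelihood test), with the overlapping gene Ttc33 at 225 normalized counts. Ptger2 stood at 5.24 to 19.4 in the control and 0 to 4.01 in the knockout libraries and was not tested.

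Of 13 tested genes of arachidonate release, 1 fell and 1 rose. Pla2g2d, a secreted phospholipase, stood at 24.5, 30.02 and 22.0 normalized counts in the control replicates and had 0 counts in each knockout replicate. Against a floor of 3 counts per library this is at least 8.21-fold lower, with an adjusted p of 0.00168 in edgeR's quasi-likelihood test. Macrophage markers fell beside it, and their part was not tested. Mgll, the lipase that frees arachidonic acid from an endocannabinoid, stood at 182, 116 and 149.98 normalized counts in the control replicates and at 388, 403 and 573 in the knockout replicates. Every knockout library was above every control library, and the log2 fold change of Mgll was 1.60 (SE 0.22, adjusted p = 0.00223 in edgeR's quasi-likelihood test). Pla2g4a, the cytosolic phospholipase that supplies the cyclooxygenases, stood at 731, 824 and 846 in the control and at 765, 757 and 1044 in the knockout replicates, with a log2 fold change of 0.10 (adjusted p = 0.626 in edgeR's quasi-likelihood test). Acsl4, which loads arachidonic acid onto coenzyme A, stood at 10212, 8266 and 10685 normalized counts in the control and at 20233, 21172 and 9140.0 in the knockout replicates. Amh-pa1-/- replicate 3 lay within the control range, and the log2 fold change of Acsl4 was 0.79 (adjusted p = 0.0851 in the same edgeR test). Without that library it was 1.09 (adjusted p = 0.000298 in the same edgeR test), past both thresholds, so the call turns on replicate 3. Pla2g6 had a log2 fold change of -0.31 (adjusted p = 0.0328 in the same edgeR test).

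Of 9 tested genes of the other eicosanoid enzymes, 1 rose and none fell. Alox12, a lipoxygenase of platelets and epithelia, stood at 10.9, 39.7 and 15.7 normalized counts in the control replicates and at 70.3, 71.0 and 52.1 in the knockout replicates. Its log2 fold change was 1.54 (SE 0.45, adjusted p = 0.0373 in edgeR's quasi-likelihood test), and the call was lost under 6 alternatives. The estimate ranged from 1.21 without Pa1F/F replicate 1 to 2.27 without Pa1F/F replicate 2. Ephx1, an epoxide hydrolase, stood at 1066, 999 and 1083 normalized counts in the control and at 1637, 1661 and 399.8 in the knockout replicates, so that its knockout libraries lay on both sides of the controls. Its log2 fold change was 0.23 (adjusted p = 0.734 in edgeR's quasi-likelihood test), and 0.65 (adjusted p = 0.00019 in the same edgeR test) without Amh-pa1-/- replicate 3. Lta4h, which makes leukotriene B, and Cyp2j6, an epoxygenase, had log2 fold changes of 0.10 and -0.27 and were not called.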

How the data were processed

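RNA-seq was analysed in 6 libraries of Sertoli cells, 3 Pa1F/F and 3 Amh-pa1-/-, grouped by genotype from the labels. Per the paper's methods, RNA was taken up in Trizol, made into NEBNext Ultra libraries and read on a HiSeq sequencer. The submitters' processing notes name HISAT2 2.1.0, HTSeq 0.6.0 and GRCm38. The authors deposited read counts per gene without normalization. A strand setting is not given in the sources used here. The authors' columns of mean signal, fold change and p-values were not used.

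Counts were filtered with edgeR's filterByExpr (minimum count 10, minimum total 15), scaled by TMM (factors 0.990 to 1.03) and compared over 14919 genes by the quasi-likelihood F-test, with Benjamini-Hochberg adjustment (R 4.3.3, edgeR 4.0.16, limma 3.58.1, DESeq2 1.42.0, Python 3.11.15). The SE is the absolute log2 fold change over the square root of F. The steps were tested on simulated data. Single values were compared by exact two-sided permutation. Log2 CPM values used a prior count of 3. Levels per kilobase used exon lengths of a later annotation (GENCODE, GRCm39), lengths only. Promoters are from RefSeq.

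The members, pathway lists and marker lists were chosen with earlier results of these data known. Named are all members, every called pathway gene, at most 3 further genes per list with the highest mean count, the 2 genes most like each called member, and genes beside a result, chosen after their values were seen. The floor is 3 counts, and it covers counting error only. Replicate numbers were not taken as pairs. Same-numbered libraries had correlations of their deviations of 0.11, -0.16 and -0.18. Alternatives were other scalings, filters, tools and thresholds, the replicate number as a block, summed closest pairs and leaving out each library.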

Additional observations from a re-analysis of the deposited data

How the results depend on the processing

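The 2 lower members, Ptges and Ptgr1, were called in each fit that left out a library (2 in all 6). With glmTreat, which tests against a log2 fold change of 1, only 1 member (Ptgr1) was called, Ptges having an adjusted p of 0.164 there, and of all genes 538 were called against 1791, and of pathway genes 2 against 7. Without the fold threshold 1 member (Ptgs1) was called higher, together with 5266 of all genes and 13 pathway genes. Summing the closest pairs of replicates left 883 genes and 3 pathway genes, and a minimum of 10 counts in every library left 4 pathway genes, since fewer genes were then tested. Leaving out 1 library each gave 1466 to 2076 genes in all and 4 to 7 pathway genes, with 4 without Pa1F/F replicate 1 and 4 without Pa1F/F replicate 3. Without Amh-pa1-/- replicate 3, Acsl4 was called and Hpgds was not. The replicate number as a block gave 1558 genes and ended the calls of Hpgds and Tbxas1, and the 2 lower members held. Since same-numbered libraries did not deviate together, the numbers are not taken as pairs.

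With 1 library left out, the log2 fold change of Ptgds ranged from -0.32 to 0.45 and that of Ptgis from -0.48 to 0.092. Ptgds turned without Pa1F/F replicate 3 (-0.01) and without Amh-pa1-/- replicate 3, and Ptgis without Amh-pa1-/- replicate 1 (0.06) or 2 and with the closest pairs summed (0.15). No other member changed sign under these alternatives. The causes were not tested. Hpgds was no longer called under 10 alternatives, Tbxas1 and Alox12 under 6 each, Slco2a1 under 2 (glmTreat and summed pairs) and Mgll under 1 (glmTreat). Pla2g2d and Akr1c18 kept their calls under each alternative that gave them a value.

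With the longest transcript as the length, control levels per kilobase were 93.6 for Ptgs1, 85.4 for Ptgs2, 40.1 for Ptges2, 902 for Ptges3, 314 for Ptgis and 1025 for Ptgr1. With the canonical transcript, chosen after seeing the data, they were 93.7 for Ptgs1, 85.4 for Ptgs2, 40.6 for Ptges2, 902 for Ptges3, 42.2 for Ptgds, 346 for Ptgis, 6.40 for Hpgd and 1121 for Ptgr1. Few counts stand behind Hpgd, Hpgds, Tbxas1 and the receptors.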
